A study of Mus musculus with 36 samples.

Results

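The phase II conjugation enzymes described here are the UDP-glucuronosyltransferases (Ugt), the soluble and microsomal glutathione S-transferases (Gst, Mgst) and the sulfotransferases (Sult) of mouse liver. They were taken from the deposited count table as protein-coding genes whose symbol falls in the Ugt1a, Ugt2a, Ugt2b, Ugt3a, Gst, Mgst or Sult families. Of 67 such genes, 49 had at least 100 counts summed over the 36 libraries and entered every test, among 17994 genes with that many counts. They comprised 17 of 21 Ugt genes, 21 of 22 Gst genes, all 3 Mgst genes and 8 of 21 Sult genes, and the 18 others were too low to be tested. Sult4a1, with 110 counts, was the member nearest to the limit and Sult1e1, with 95 counts, the gene nearest below it. Livers came from male mice of 2 to 3 months on chow, kept in 12 h light and 12 h dark and killed every 4 h, with 3 mice per genotype at each of 6 Zeitgeber times (ZT, hours after lights on). THRB KO mice carry a systemic knockout of both isoforms of the thyroid hormone receptor beta (strain B6.129S1-Thrbtm1Df/J on a C57Bl/6NCrl background), so the change is not confined to liver. The paper describes the model as one with impaired DNA binding of the receptor. It names raised serum triiodothyronine in such mice as a limit. The controls, called THRB WT, were heterozygous (THRB+/-), so that both groups carry the targeted allele.

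Phase II enzymes attach a polar group to hormones, bile pigments, lipids, drugs and their oxidised products, which makes them easier to excrete in bile and urine. Ugt enzymes sit in the endoplasmic reticulum and transfer glucuronic acid, Sult enzymes are cytosolic and transfer a sulfonate group, and Gst enzymes join glutathione to reactive electrophiles. Hepatocytes carry most of this capacity, and thyroid hormones are themselves substrates of glucuronidation and sulfation.

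No member lies on chromosome 14, which carries Thrb. Libraries held 29063273 to 39913574 assigned reads for THRB WT and 31008555 to 42530551 for THRB KO mice. Values below are read counts scaled to a common library size (CPM). The count over the whole Thrb gene was 24.3 to 38.5 CPM in THRB WT and 26.2 to 37.7 CPM in THRB KO mice, and since it does not separate altered from intact transcripts it gave no check of the genotype labels. The hepatocyte markers (6 of 6 tested) summed to 62780 to 89290 CPM in THRB WT and 68770 to 93000 CPM in THRB KO mice, most of it Alb. Their median log2 fold change was -0.118, and 2 of them, Ttr (-0.14) and Apoa1 (-0.12), had an unadjusted p under 0.05. Among markers of other cells, the summed levels of Kupffer cells (132 to 449 against 133 to 263 CPM), endothelial cells (84.0 to 180 against 108 to 193 CPM) and stellate cells (181 to 424 against 258 to 464 CPM) overlapped between genotypes. Cholangiocyte markers (5 of 6 tested, Cftr too low) summed to a median of 43.1 CPM in THRB WT and 38.1 CPM in THRB KO mice, and 2 of them, Sox9 and Spp1, had an unadjusted p under 0.05 with lower values in THRB KO mice. Erythroid markers summed to 219 to 983 CPM against 145 to 646 CPM. Intestinal markers summed to 45.3 to 71.0 against 28.3 to 70.6 CPM, with Sis, Alpi and Lct too low to test. Most of that sum was Fabp2, since Vil1 and Muc2 stood at no more than 0.356 CPM in any mouse. Of 6 pancreatic markers 1 was tested, at no more than 0.822 CPM. Pericentral hepatocyte markers summed to 4663 to 12350 against 4428 to 9084 CPM, and periportal ones to 4887 to 11270 against 5015 to 8480 CPM. The part of these cell types in the results below was not tested.

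The 49 genes took between 1.37 and 2.04% of all assigned reads in a library. To compare genes with each other, CPM was divided by the exon length in kilobases. On that scale the 3 most abundant genes held 61.6% of the summed level of the 49. Gstp1, which detoxifies electrophiles in the cytosol and is high in male mouse liver, stood at 2517 ± 325 CPM per kb in THRB WT mice (SD, n = 18) and 2041 ± 520 in THRB KO mice (SD, n = 18). Mgst1, a membrane-bound glutathione transferase and peroxidase, stood at 1597 ± 148 and 1524 ± 216. Gstm1, the main mu-class transferase, stood at 1572 ± 438 and 1483 ± 246. The order of Mgst1 and Gstm1 was not resolved, since their means differed by less than the SD of Gstm1.

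**Figure D1:**
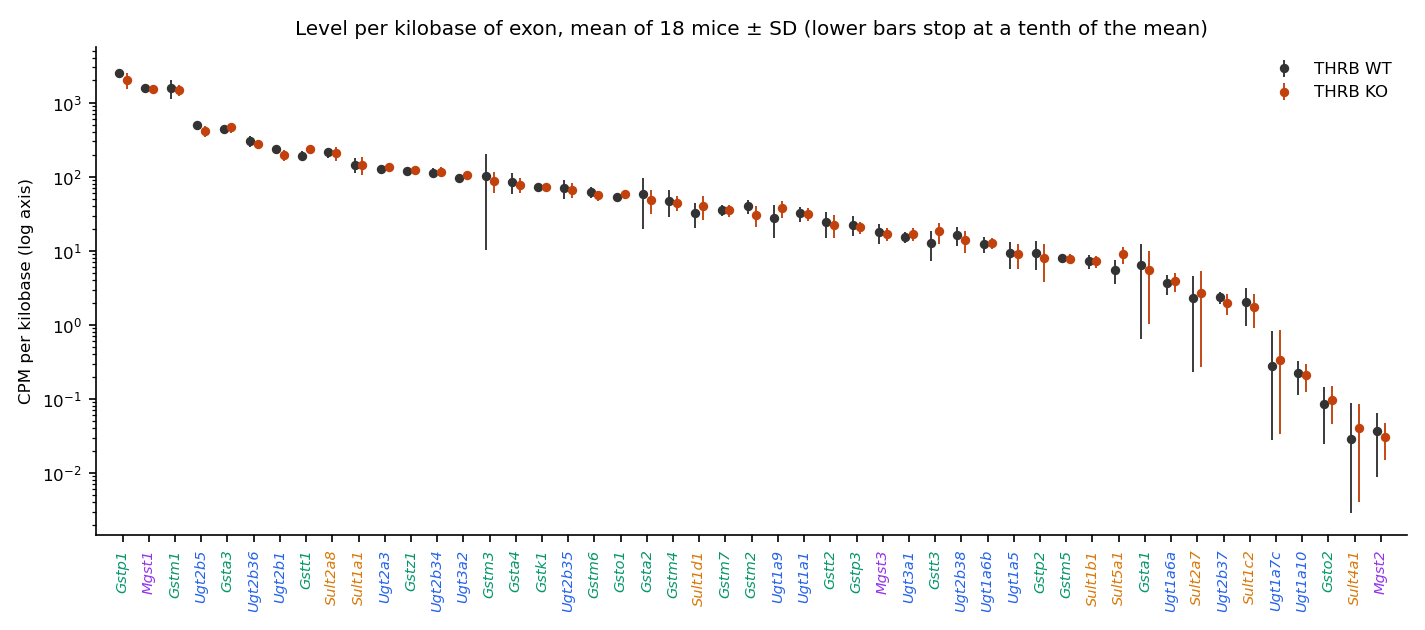
Level of each of the 49 genes in CPM per kilobase of exon on a log axis, ordered by the mean over all mice, with THRB WT in dark grey and THRB KO in orange (mean of 18 mice ± SD). Symbols are coloured blue for Ugt, green for Gst, purple for Mgst and orange for Sult. Levels span from 2279 CPM per kb for Gstp1 to under 1 CPM per kb for 5 genes.

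Next in order came Ugt2b5 (501 ± 69.4 in THRB WT and 415 ± 71.6 CPM per kb in THRB KO), a glucuronosyltransferase of the subfamily that handles steroids and bile acids, and Gsta3 (441 ± 53.0 and 467 ± 71.0), the leading alpha-class transferase. The other abundant Ugt genes were Ugt2b36 (307 ± 52.5 and 277 ± 40.5 CPM per kb) and Ugt2b1 (236 ± 29.5 and 196 ± 34.5). Among sulfotransferases Sult2a8, of the hydroxysteroid and bile acid subfamily, led with 215 ± 34.2 and 208 ± 41.9 CPM per kb, followed by the phenol sulfotransferase Sult1a1 (146 ± 33.6 and 146 ± 39.5) and by Sult1d1 (32.3 ± 11.7 and 40.7 ± 15), which sulfates catecholamines and other phenols. Ugt1a1, the bilirubin-conjugating enzyme, and Ugt1a9, a phenol-conjugating enzyme, were close together at 32.0 ± 7.36 and 28.1 ± 13 CPM per kb in THRB WT mice, with Ugt1a6b below them at 12.3 ± 2.89. Ugt1a values are uncertain, because the 7 genes share their last exons and only 17.3 to 49.7% of the exon bases of each belong to it alone. That share was 17.3% for Ugt1a1 and 40.1% for Ugt1a9, so their closeness and order on this scale were not resolved. The other Mgst genes were low, with Mgst3 at 17.7 ± 5.44 and Mgst2 at 0.0369 ± 0.0280 CPM per kb in THRB WT mice.

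When sampling time was accounted for, 4 members differed between genotypes at an adjusted p under 0.05, with fitted levels in THRB KO livers between 0.823-fold and 1.64-fold of those in THRB WT. Ugt2b5 and Ugt2b1 fell in THRB KO livers, whereas Sult5a1 and Gstt1 rose. That is 4 of 49 members, beside 171 of 17994 genes, or 0.950%, with 0.506% in the upward and 0.445% in the downward direction. The test was the quasi-likelihood F test of edgeR with sampling time as a factor, and p-values were adjusted over all 17994 genes. In liver RNA, fewer cells of a type and less RNA per cell cannot be told apart.

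The sequences before the RefSeq start sites of these 4 genes and of Ugt2b38, the closest copy of Ugt2b5, are shown so that the regions can be compared. They are RefSeq sequences of build GRCm38.p6, read 5′ to 3′ on the strand of the gene, and begin 250 bases before the start site. They end at the start site or, for Ugt2b1 and Sult5a1, where an annotated exon begins. All 5 genes lie on the minus strand. The RefSeq start of Gstt1 lies inside the gene as the deposited table bounds it, so its window is not upstream of that longer model. Capitals mark a D-box, the element bound by the clock output factors Dbp, Tef and Hlf, searched as TTATGTAA or TTATGCAA on both strands.
Ugt2b1, chr5:86926531-86926753: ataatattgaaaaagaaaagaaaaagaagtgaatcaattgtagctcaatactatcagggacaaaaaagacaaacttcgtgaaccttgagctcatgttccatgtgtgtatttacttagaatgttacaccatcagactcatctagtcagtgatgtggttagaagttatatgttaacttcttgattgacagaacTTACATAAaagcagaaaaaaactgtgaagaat
Gstt1, chr10:75797732-75797981: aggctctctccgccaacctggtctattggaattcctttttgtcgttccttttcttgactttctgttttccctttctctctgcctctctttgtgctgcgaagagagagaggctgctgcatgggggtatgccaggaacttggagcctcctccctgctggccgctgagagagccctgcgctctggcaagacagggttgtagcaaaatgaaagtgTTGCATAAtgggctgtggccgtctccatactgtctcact
Sult5a1, chr8:123158316-123158530: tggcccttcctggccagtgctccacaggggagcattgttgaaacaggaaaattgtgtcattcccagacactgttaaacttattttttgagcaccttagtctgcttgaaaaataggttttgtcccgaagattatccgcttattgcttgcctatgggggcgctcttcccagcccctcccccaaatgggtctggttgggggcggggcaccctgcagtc
Ugt2b5, chr5:87140341-87140590: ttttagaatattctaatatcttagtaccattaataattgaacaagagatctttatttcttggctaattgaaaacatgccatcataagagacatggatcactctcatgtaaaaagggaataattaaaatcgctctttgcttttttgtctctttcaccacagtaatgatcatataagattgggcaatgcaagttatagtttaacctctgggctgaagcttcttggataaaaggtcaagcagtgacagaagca
Ugt2b38, chr5:87424204-87424453: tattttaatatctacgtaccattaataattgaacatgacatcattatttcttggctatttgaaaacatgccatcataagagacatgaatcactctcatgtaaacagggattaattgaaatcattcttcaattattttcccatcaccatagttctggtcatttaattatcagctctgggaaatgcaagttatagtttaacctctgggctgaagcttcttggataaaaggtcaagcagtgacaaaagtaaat

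A D-box was present in the 250-base windows of Ugt2b1, at position -59, and of Gstt1, at position -39 from the start site. No other member of the 43 with a RefSeq promoter held one. Some members have several promoters, 54 in all, and 3.7% of these held a D-box, beside 1.5% of all 32851 promoters. An E-box, the CACGTG element of the core clock factors, was found in 0 of the 54 and in 6.02% of all promoters. The core of the antioxidant response element bound by Nrf2, TGACNNNGC on either strand, was found in 4 members (Gsta3, Gstm5, Gstm7 and Mgst1) and 7.41% of the 54, beside 10.2% of all promoters. The GTTAAT half-site of the hepatocyte factor HNF1, on either strand, was found in 9 members and 16.7% of the 54, beside 6.43% of all promoters, among them Ugt1a1, Ugt1a9 and Sult1d1. A match of letters is a description of the window and not a binding site. The windows of Ugt2b5 and Ugt2b38 were identical at 212 of 240 aligned bases (88.3%), and those of Ugt2b5 and Ugt2b36 at 69.6% of 230.

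**Figure D2:**
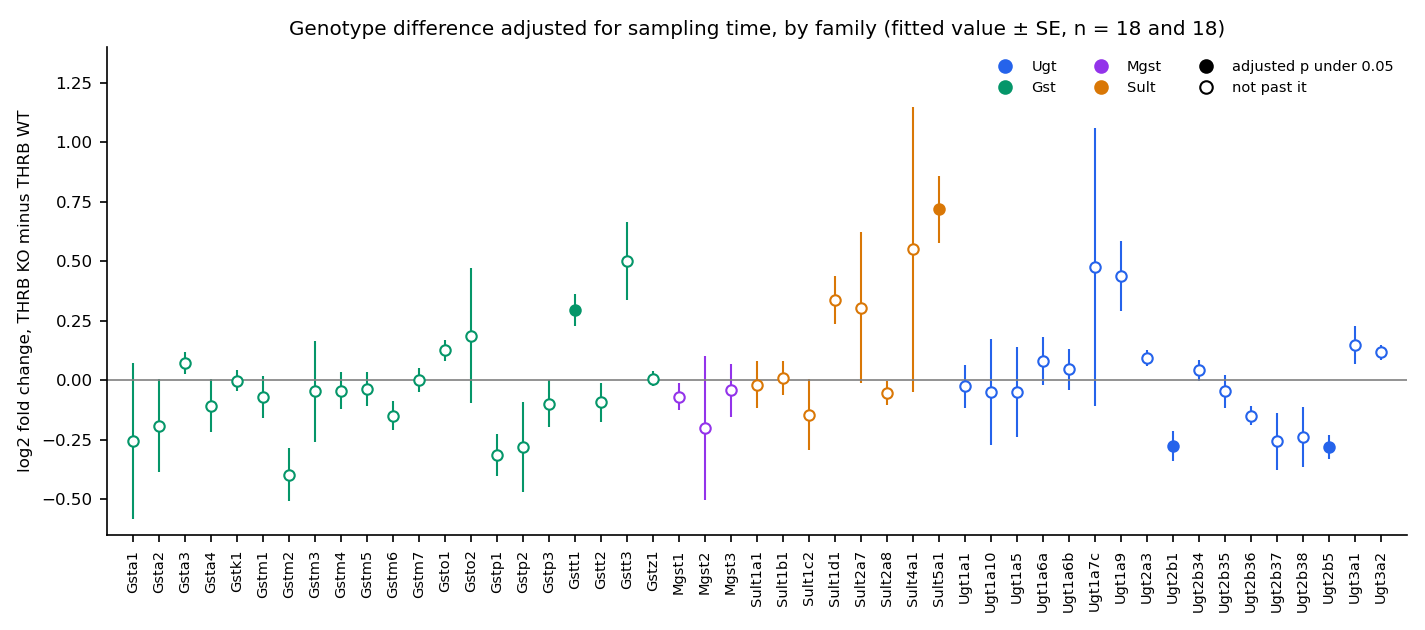
Fitted log2 fold change of THRB KO against THRB WT livers for each of the 49 genes, adjusted for sampling time (± SE, 18 mice per genotype), in alphabetical order and coloured by family. Filled points are the 4 genes past an adjusted p of 0.05, with Sult5a1 and Gstt1 above zero and Ugt2b1 and Ugt2b5 below it. Open points are genes that did not pass.

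Ugt2b5 (chr5:87124960-87140318, minus strand, GRCm38) ranged from 703 CPM over a median of 931 to 1102 CPM in THRB WT mice. In THRB KO mice it ranged from 580 over 790 to 1013 CPM. At ZT6, where the distance was widest, the THRB WT mice had 1078, 1089 and 934 CPM and the THRB KO mice 879, 651 and 638 CPM, so the groups did not overlap. All 3 THRB KO mice lay below all 3 THRB WT mice at 5 of 6 sampling times, with ZT10 the exception, and the mean was lower at all 6. The log2 fold change was -0.28 (SE 0.051, adjusted p = 0.00162, edgeR), a level 17.7% lower. The labels name the 3 mice of a group by letter, and with all 12 mice of a, of b or of c omitted the adjusted p was 0.0555, 0.0724 and 0.0135, with fold changes from -0.30 to -0.27, and it was 0.126 when sampling time was ignored.

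Ugt2b1 (chr5:86916638-86926530, minus strand), a neighbour of Ugt2b5 in the same gene cluster, ranged from 501 over a median of 603 to 768 CPM in THRB WT mice. In THRB KO mice the range was 344 over 505 to 744 CPM. Its groups were apart at 3 of 6 sampling times, for example at ZT22 with 638, 603 and 601 CPM against 552, 344 and 478 CPM. The log2 fold change was -0.27 (SE 0.063, adjusted p = 0.0204, edgeR). It kept its sign when each letter was omitted, with adjusted p of 0.113, 0.137 and 0.147, and had 0.101 when sampling time was ignored.

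The other Ugt2b genes did not pass the test. Of the 7 Ugt2b genes, 6 had a fitted value below zero and the family median was -0.24 on the log2 scale, beside a median of -0.0011 for all genes. Ugt2b36, the second most abundant of the family, had 463 over 639 to 811 CPM in THRB WT and 421 over 558 to 749 CPM in THRB KO mice, and its log2 fold change of -0.15 (SE 0.041) did not pass with an adjusted p of 0.0761 in edgeR, beside 0.0299 in DESeq2. Ugt2b34 and Ugt2b35 had values of 0.04 and -0.05. Ugt2b38, at 17.9 to 49 CPM in THRB WT mice, shares 95.5% of its aligned bases with Ugt2b5, so reads of the abundant gene can be counted for it and the reverse.

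Sult5a1 (chr8:123140192-123158315, minus strand), an orphan cytosolic sulfotransferase, had the largest called change. THRB WT mice ranged from 11.7 over a median of 22.2 to 42.0 CPM and THRB KO mice from 25.6 over 38.0 to 61.4 CPM. The THRB KO mean was higher at all 6 sampling times, and the groups were apart at 3 of them. At ZT14 the THRB WT mice had 19.8, 14.5 and 17.8 CPM and the THRB KO mice 55.2, 31.0 and 25.6 CPM. At ZT2 they overlapped, with 38.2, 29.4 and 33.2 CPM against 45.7, 31.5 and 30.3 CPM. The log2 fold change was 0.72 (SE 0.140, adjusted p = 0.00407, edgeR), or 1.64-fold. With a, b or c omitted the adjusted p was 0.00965, 0.0967 and 0.0525.

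Gstt1 (chr10:75783813-75798584, minus strand), the theta-class transferase that acts on small halogenated compounds, ranged from 246 over 283 to 383 CPM in THRB WT and from 262 over 362 to 446 CPM in THRB KO mice. At ZT22 the THRB KO mice had 378, 372 and 388 CPM, all above the 326, 272 and 267 CPM of the THRB WT mice. The mean was higher in THRB KO mice at all 6 sampling times and the groups were apart at 3. The log2 fold change was 0.30 (SE 0.067, adjusted p = 0.0175, edgeR). It lay between 0.27 and 0.33 when a letter was omitted, with adjusted p for a, b and c of 0.377, 0.0558 and 0.0694.

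**Figure D3:**
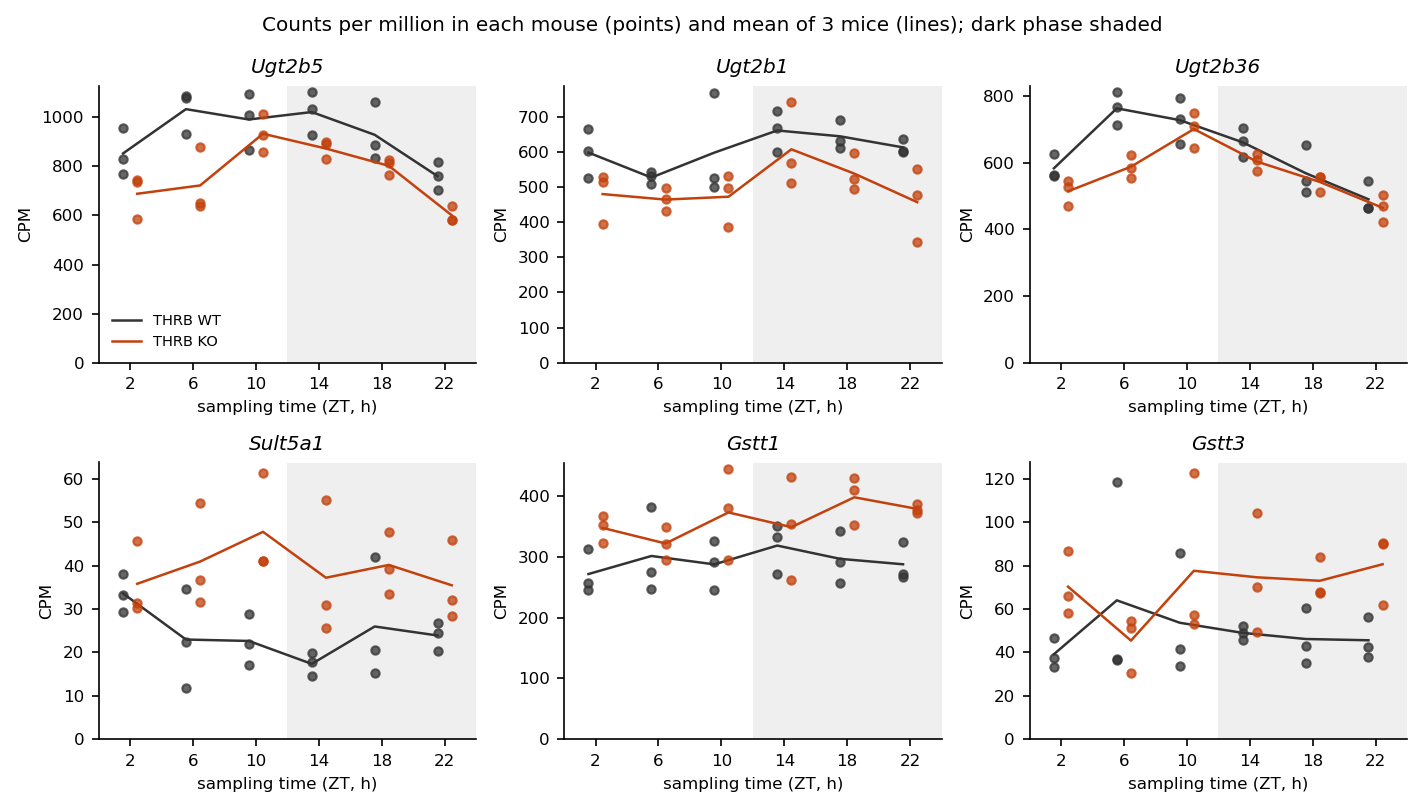
CPM of 6 genes against sampling time, with 1 point per mouse, lines through the mean of 3 mice and the dark phase shaded. Ugt2b5, Ugt2b1, Sult5a1 and Gstt1 passed an adjusted p of 0.05, Ugt2b36 and Gstt3 did not. The single THRB WT mouse at ZT6 with 119 CPM of Gstt3 is the animal described at the end of the results.

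Gstt1 is 1 of 3 tested theta-class genes in a cluster on chromosome 10 that also holds Gstt4, which was too low to test. Its neighbour Gstt3 had 33.2 over 42.9 to 119 CPM in THRB WT and 30.6 over 66.8 to 123 CPM in THRB KO mice, and its log2 fold change of 0.50 (SE 0.165) did not pass (adjusted p = 0.162, edgeR). Gstt2 had a value of -0.09 (SE 0.082, adjusted p = 0.721, edgeR). Of the 3, 1 passed the test.

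At an unadjusted p under 0.05, 8 members were higher and 7 lower in THRB KO mice, beside 6.09 and 5.96% of all genes. Of the 49 members, 8 had all 3 THRB KO mice on the same side of all 3 THRB WT mice at 3 or more sampling times, beside 1.32% of all genes. These were the 4 called genes with Ugt3a2, Gstm2, Gstt3 and Ugt1a9, named after their values were seen. Ugt3a2, whose family uses sugars other than glucuronic acid, had 240 over 299 to 334 CPM in THRB WT and 281 over 329 to 371 CPM in THRB KO mice (log2 fold change 0.12, SE 0.031, adjusted p = 0.0515, edgeR). Gstm2, a mu-class transferase, had 44.4 over 65.5 to 103 CPM and 34.0 over 50.2 to 103 CPM (-0.40, SE 0.111, adjusted p = 0.0761, edgeR). DESeq2 called both, with adjusted p of 0.00895 and 0.0269.

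Gstp1, the most abundant member, had 1326 over 1919 to 2369 CPM in THRB WT and 695 over 1469 to 2559 CPM in THRB KO mice. The THRB KO mean lay below that of THRB WT at all 6 sampling times, but the log2 fold change of -0.31 (SE 0.089) did not pass in edgeR (adjusted p = 0.0813), beside 0.0313 in DESeq2. The lowest and the highest values both came from THRB KO mice, at ZT22 and ZT18. Gstp1 was 98.7% identical to Gstp2 over 445 aligned bases and is also close to a pseudogene, so reads of these copies can be counted for one another. Sult1d1 had a log2 fold change of 0.34 (SE 0.103, adjusted p = 0.116, edgeR) and Ugt1a9 one of 0.44 (SE 0.147, adjusted p = 0.176, edgeR).

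Other abundant members had fitted values nearer to zero and did not pass the test. Gsta3 had a log2 fold change of 0.07 (SE 0.045), Mgst1 of -0.07 (SE 0.057), Gstm1 of -0.07 (SE 0.088), Sult2a8 of -0.05 (SE 0.052) and Sult1a1 of -0.02 (SE 0.10). Ugt1a1 had -0.03 (SE 0.090) and Ugt1a6b 0.05 (SE 0.087), both with values overlapping between genotypes. A p that misses the threshold does not show that these levels were equal. The members' median log2 fold change was -0.04, with 20 values above and 29 below zero, beside 8915 above and 9079 below over all genes.

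Read for each sampling time alone, no member passed an adjusted p of 0.05 in edgeR, where 5 genes did at ZT2 (0.0278%), 2 at ZT6 (0.0111%), 3 at ZT10 (0.0167%), 3 at ZT14 (0.0167%), 4 at ZT18 (0.0222%) and 4 at ZT22 (0.0222%). With an unadjusted p under 0.05, members numbered 4 at ZT2 (all genes 5.43%), 17 at ZT6 (4.37%), 4 at ZT10 (4.12%), 4 at ZT14 (5.34%), 3 at ZT18 (5.36%) and 9 at ZT22 (4.73%). ZT6 stood out by its number and its direction, with 14 of the 17 lower in THRB KO mice and a members' median of -0.27 on the log2 scale, beside 0.0019 for all genes. Without 1 THRB WT mouse at ZT6, mouse b, the number fell to 4 (all genes 2.91%) and the median to -0.12. The genotype difference did not vary between sampling times in any member at an adjusted p of 0.05 (edgeR interaction test, 0% of all genes). At an unadjusted p under 0.05 the interaction held 4 members in edgeR and 5 in DESeq2, beside 2.69% of all genes in edgeR. The 4 were Gsta1, Gsta2, Gstm3 and Ugt1a6a, named after their values were seen, and the first 3 were among the genes highest in mouse b.

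That mouse b had high levels of many members at once. It had the highest value of the 18 THRB WT mice for 20 of 49 members, beside 8.02% of all genes, and no other mouse was highest of its genotype for more than 8. Its mean distance from its group's median was 0.58 on the log2 scale over the members and 0.20 over all genes, against 0.05 to 0.34 and 0.16 to 0.24 in the other 35 mice. Its read total and its summed hepatocyte markers (75810 CPM) lay within the range of the others, but Serpina1c (1130 CPM) and Glul (663 CPM), a hepatocyte and a pericentral marker, were below the other 17 THRB WT mice. All other hepatocyte and pericentral markers lay within the range of those mice. Some were above the mean of the other ZT6 controls, as Alb (1.13-fold) and Oat (1.43-fold), and others below it, as Apoa1 (0.755-fold) and Cyp2e1 (0.913-fold). Its summed cholangiocyte markers, 63.6 CPM, were the highest of all 36 mice, with Spp1 at 54.4 and Epcam at 2.60 CPM. Most of that sum was Spp1. Krt19 (1.61 CPM), Krt7 (2.49 CPM) and Sox9 (2.515 CPM, against a median of 6.18 CPM) lay within the range of the other 17 THRB WT mice. The stellate marker Lrat (9.33 CPM, against at least 9.383) and the erythroid marker Alas2 (51.3 CPM, against at least 65.97) were below that range. The part of these markers in its members' levels was not tested.

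Gstm3, a mu-class transferase, was at 663 CPM in mouse b, against 143 and 99.9 CPM in the other ZT6 controls and at most 204 CPM in any THRB KO mouse. Gsta1 was at 26.4 CPM against 4.48 and 4.97, and Gsta2 at 235 CPM against 45 and 72.7. Gsta1 and Gsta2 are near-identical copies, with over 95% of aligned bases in common, so that part of each count can belong to the other. Gstt3 was 3.24-fold, Ugt1a9 3.24-fold and Gstm1 1.84-fold above the mean of the other ZT6 controls. Sult2a7, another hydroxysteroid sulfotransferase, was at 13 CPM against 2.33 and 3.21. Sult4a1, the member with the fewest counts, was at 0.643 CPM against 0 and 0.0263. In all, 12 members were at least 2-fold higher in mouse b, among them Sult4a1 and Gsto2, which were under 1 CPM in every mouse. The share of all genes at that limit was not counted. Ugt2b1 (1.01-fold), Mgst1 (0.973-fold) and Ugt2b5 (1.08-fold) were close to the others and Sult5a1 was lower at 0.410-fold. The genes named here for mouse b were chosen after their values were seen.

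Outside the conjugating enzymes, mouse b also had 33.1 CPM of G6pdx, which supplies NADPH, against 5.00 and 8.32 CPM, and 10.3 CPM of Nqo1, a quinone reductase under Nrf2 control, against 5.21 and 5.37 CPM. Cyp2b10 and Cyp3a11, cytochromes P450 known as targets of xenobiotic-sensing receptors, were high there, Cyp2b10 at 15 CPM against 1.13 and 1.42 and Cyp3a11 at 9183 CPM against 3831 and 5633. Both are in none of the gene lists. Cyp2b9, read with them, was at 9.21 CPM against 0.105 and 0.274, and reached 97.2 CPM in THRB KO mice. Over all mice Cyp2b10 reached 10.7 CPM in the other THRB WT and 35.4 CPM in THRB KO mice, and Nqo1 reached 14.6 CPM in THRB KO mice, so neither was at its highest in mouse b. G6pdx (at most 13.4 CPM elsewhere) and Cyp3a11 (at most 7649 CPM elsewhere) were. The part of these genes in the members' levels was not tested. Left out of the fit, mouse b took the number of called members from 4 to 7, and that of all called genes from 171 to 236. Added were Ugt1a9 (log2 fold change 0.58, adjusted p = 0.00118), Gstt3 (0.64, adjusted p = 0.00348) and Sult1d1 (0.38, adjusted p = 0.0464), all in edgeR. The 4 called with mouse b remained, with Ugt2b5 at an adjusted p of 0.00247, Sult5a1 at 0.00429, Gstt1 at 0.00201 and Ugt2b1 at 0.0216. Mouse b was left out after its values were seen, and it was the highest ZT6 control for Ugt1a9, Gstt3 and Sult1d1. Its removal lowers their THRB WT level at ZT6 by construction, so the added calls are not independent evidence.

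**Figure D4:**
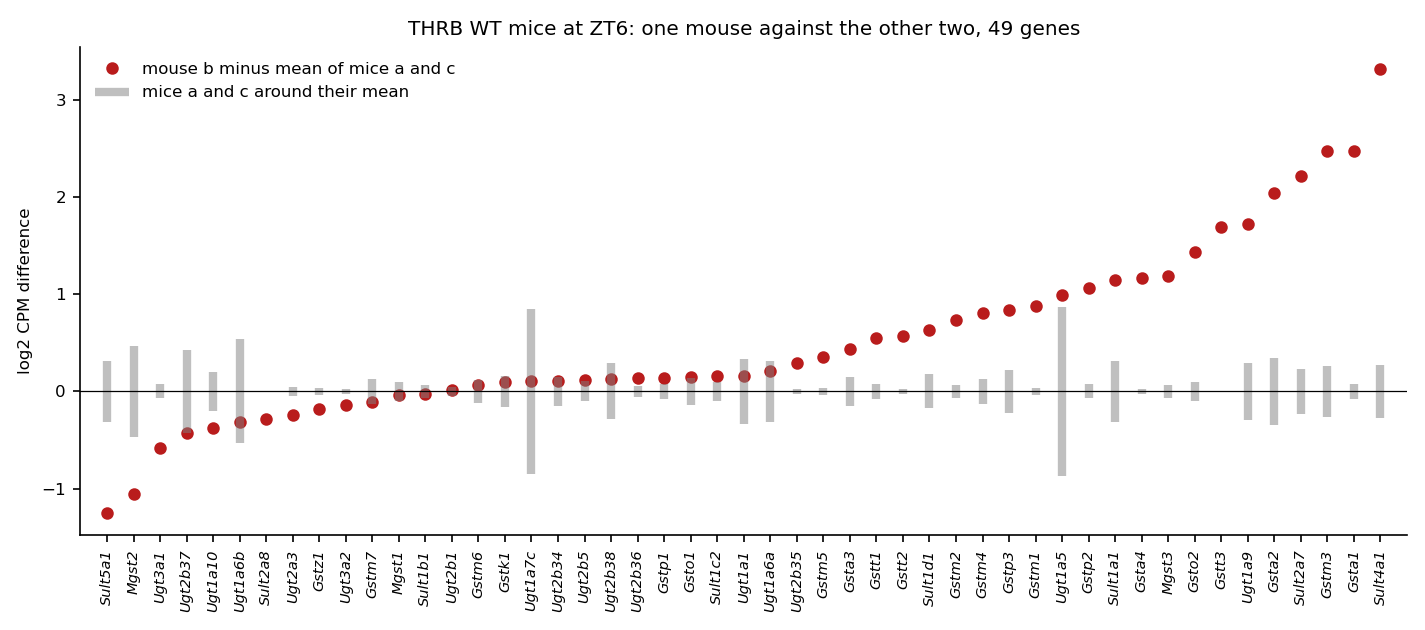
Difference in log2 CPM between THRB WT mouse b at ZT6 and the mean of mice a and c (red points) for each of the 49 genes in order of size, with the grey bars showing where mice a and c lay around their own mean. Sult4a1, Gsta1, Gstm3, Sult2a7 and Gsta2 stand more than 2 log2 units above the other mice, Sult4a1 at under 1 CPM in all mice, and Sult5a1 and Mgst2 at least 1 below.

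A 24-h rhythm was called for 17 of 49 members in THRB WT mice, beside 33.1% of all genes, and for 17 in THRB KO mice, beside 28.9%. In both genotypes 13 were called, beside 21.6% of all genes, so the members' share was near that of all genes. By family, 6 Ugt, 4 Gst and 3 Sult genes were rhythmic in both genotypes, and none of the 3 Mgst genes. All 13 are named below, with Ugt2a3 named after its values were seen.

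The peaks fell in an order along the day. In THRB WT mice the mu-class genes Gstm7 and Gstm4 peaked first, at ZT1.91 ± 0.80 h and ZT4.09 ± 0.65 h (SE). A group followed late in the light phase, with Ugt2b35 at ZT7.74 ± 0.60, Ugt1a6a at ZT8.09 ± 0.83, Sult2a8 at ZT8.36 ± 0.59, Sult1c2 at ZT8.63 ± 0.35, Gstt2 at ZT8.90 ± 0.89, Ugt2b36 at ZT9.08 ± 0.55 and Ugt2b5 at ZT10.6 ± 0.98. Ugt2a3 (ZT12.8 ± 0.70), Sult1d1 (ZT13.1 ± 0.76) and Ugt2b34 (ZT13.4 ± 0.73) peaked near lights off and Gsta3 in the dark at ZT17.4 ± 1.03. From Ugt2b35 to Ugt2b36, neighbours in this order lay closer together than their errors.

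Sizes ranged from 1.28-fold to 4.18-fold between peak and trough in THRB WT mice and from 1.35-fold to 2.85-fold in THRB KO mice. Sult1c2 had the largest, 4.18-fold in THRB WT and 2.85-fold in THRB KO mice, at a low level of 1.21 to 7.02 CPM. Gstm4 (2.13-fold and 1.66-fold), Sult1d1 (2.12-fold and 2.09-fold) and Gstt2 (2.07-fold and 2.07-fold) followed. Sult1d1 rose in THRB WT mice from 45.6, 79.9 and 58.2 CPM at ZT6 to 97.5, 104 and 142 CPM at ZT14. In THRB KO mice it went from 72.3, 58.3 and 62.0 CPM to 205, 139 and 120 CPM. The abundant Ugt2b5, Ugt2b36 and Sult2a8 swung by 1.32-fold, 1.52-fold and 1.47-fold in THRB WT mice and by 1.48-fold, 1.43-fold and 1.53-fold in THRB KO mice.

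**Figure D5:**
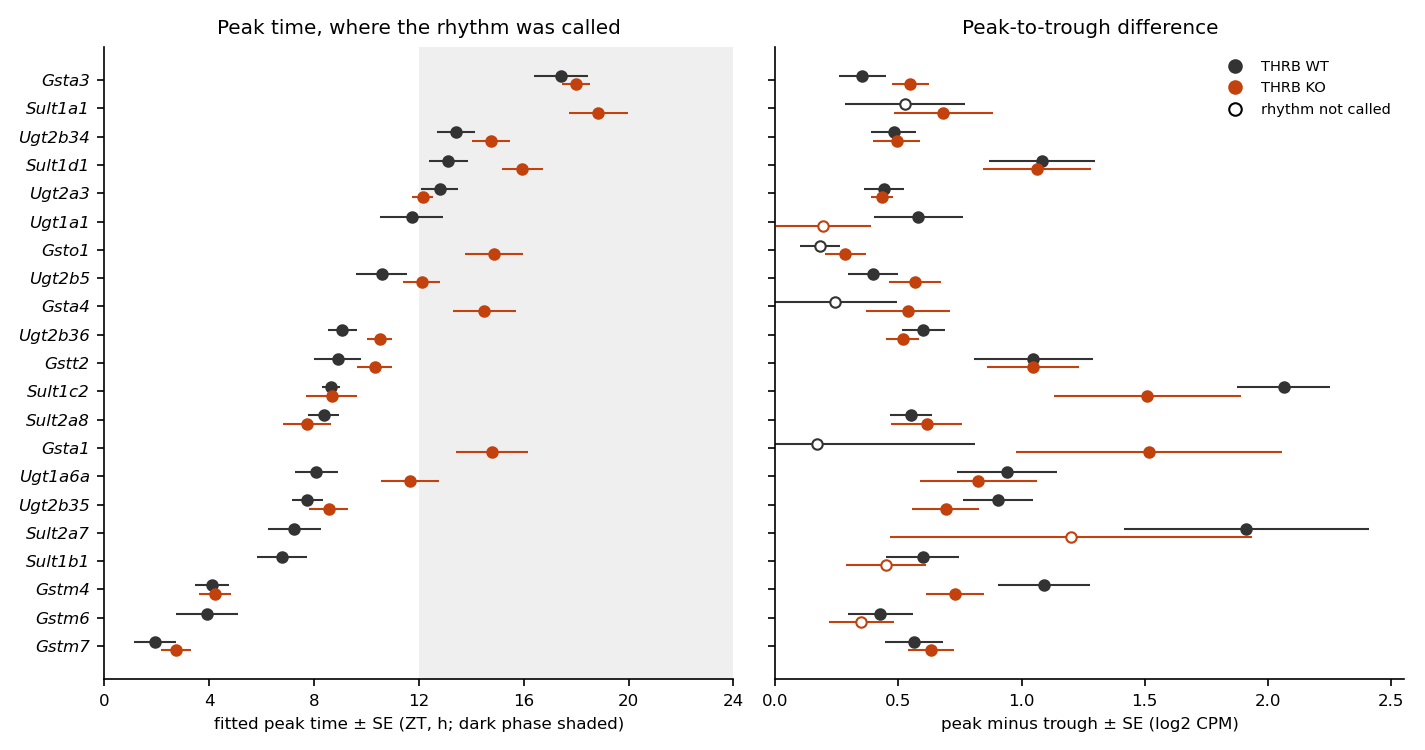
Fitted peak time (left) and peak-to-trough difference in log2 CPM (right) with SE for the 21 genes with a called 24-h rhythm in at least 1 genotype, THRB WT in dark grey and THRB KO in orange, ordered by the fitted THRB WT peak. Open points on the right mark a genotype in which the rhythm was not called, and its peak time is not drawn. Peaks run from ZT1.91 for Gstm7 to ZT17.4 for Gsta3 in THRB WT mice.

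The test of the rhythm difference itself called no member and none of all genes (0%). At an unadjusted p under 0.05 it held 3 members in edgeR and 2 in DESeq2, beside 3.07% of all genes in edgeR. Of the 13 members rhythmic in both, 11 peaked later by the fit in THRB KO mice, and the median shift was 0.814 h, beside a median of 0.391 h and 2592 of 3895 for all genes rhythmic in both. Taken alone, peak times differed at an unadjusted p under 0.05 in 2 of the 13, beside 4.44% of those 3895 genes. Ugt1a6a, a phenol-conjugating enzyme, peaked 3.56 ± 1.36 h later (SE, unadjusted p = 0.0139, adjusted p = 0.927, delta method over 36 mice with 30 residual degrees of freedom) and Sult1d1 2.81 ± 1.09 h later (unadjusted p = 0.0150, adjusted p = 0.931, same test). Neither passed adjustment. No amplitude difference among the 13 had an unadjusted p under 0.05, and the smallest, that of Gstm4, was 0.113 by the delta method.

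A rhythm was called in a single genotype for 8 members, 4 in THRB WT mice only and 4 in THRB KO mice only. Of all 17994 genes, 2057 and 1312 were called in this way. In none of the 8 members did the rhythm differ between genotypes by the test of the difference (unadjusted p from 0.0504 for Gsta1 to 0.883 for Gstm6). In THRB WT mice only, these were Sult2a7 (3.76-fold, adjusted p = 0.00341), Sult1b1 (1.51-fold, adjusted p = 0.00741), Ugt1a1 (1.5-fold, adjusted p = 0.0303) and Gstm6 (1.34-fold, adjusted p = 0.0344), all in edgeR. Their THRB KO values were 2.30-fold, 1.36-fold, 1.14-fold and 1.27-fold. Sult1b1 belongs to the subfamily that sulfates thyroid hormones, and its level was 20.2 ± 4.43 CPM in THRB WT and 20.2 ± 3.71 CPM in THRB KO mice (SD, n = 18). In THRB KO mice only, they were Gsta1 (2.86-fold, adjusted p = 0.0235), Sult1a1 (1.61-fold, adjusted p = 0.0170), Gsta4 (1.45-fold, adjusted p = 0.0269) and Gsto1 (1.22-fold, adjusted p = 0.0418), all in edgeR. Mouse b enters the THRB WT values of Gsta1, Gsta4, Sult1a1 and Sult2a7 with their highest THRB WT level. Without it the adjusted p of the Sult2a7 rhythm in THRB WT mice was 0.0192 (edgeR).

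The genes that feed, empty and regulate conjugation were read from 9 lists. Beside the members they held 77 tested genes, of which 1 was called for genotype, beside 0.950% of all genes. An unadjusted p under 0.05 was held by 13, beside 6.09% of all genes in the upward and 5.96% in the downward direction. The called gene was Papss2, which makes PAPS, the sulfonate donor of every sulfotransferase. It ranged from 112 over 168 to 232 CPM in THRB WT and from 164 over 234 to 327 CPM in THRB KO mice. Its log2 fold change was 0.46 (SE 0.076, adjusted p = 0.000472, edgeR). Without the mice of letter a its adjusted p was 0.0573 and its log2 fold change 0.48. Papss1, the other PAPS synthase, had a value of -0.32 (SE 0.174, adjusted p = 0.471, edgeR).

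The remaining lists held no called gene. Among 6 genes of glucuronic acid supply, Ugp2, which makes UDP-glucose, had 0.15 (SE 0.062, adjusted p = 0.291, edgeR) and Slc35d2 -0.08 (adjusted p = 0.775, edgeR), and the median of the list was -0.015. For glutathione supply (10 of 11 tested) the median was -0.0064, for conjugate cleavage (7 of 9 tested) 0.028, for conjugate efflux (8 tested) 0.033 and for other conjugating enzymes (10 tested) -0.034. The xenobiotic and lipid sensing factors (12 tested) had a median of 0.067 and the Nrf2 target genes (10 of 11 tested) one of 0.027. Within these, Ahr had 0.25 (adjusted p = 0.203), Por, the electron donor of cytochromes P450, 0.21 (adjusted p = 0.252) and Nqo1 0.27 (adjusted p = 0.375), all in edgeR. The other genes with the smallest p in their lists likewise did not pass. The largest values among them were -0.43 for the P-glycoprotein gene Abcb1b (adjusted p = 0.277, edgeR), 0.30 for the efflux pump Abcc4 (adjusted p = 0.542, edgeR) and -0.29 for Nat8, which acetylates cysteine conjugates (adjusted p = 0.222, edgeR). As3mt, the arsenite methyltransferase, had 0.14 (adjusted p = 0.215), Slc35b2, which carries PAPS into the Golgi, -0.09 (adjusted p = 0.250) and Aox1, aldehyde oxidase, -0.13 (adjusted p = 0.508), all in edgeR. The lysosomal hydrolases Gusb (0.08) and Arsb (0.10), and Ggct (-0.07), Cbs (0.05), Hlf (0.10) and Arntl (0.11) had adjusted p from 0.473 to 0.804.

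Rhythm in both genotypes was called for 21.6% of all genes. All 8 clock genes and clock output factors were called in both genotypes, with Dbp at a peak-to-trough of 120-fold in THRB WT and 129-fold in THRB KO mice and peaks at ZT9.92 ± 0.47 h and ZT10.4 ± 0.47 h. Of the sensing factors 8 of 12 were called in both, of glucuronic acid supply 5 of 6, of conjugate efflux 5 of 8, of glutathione supply 5 of 10 and of other conjugating enzymes 5 of 10. Lower shares were called in both for sulfate donor supply (4 of 9), conjugate cleavage (3 of 7) and Nrf2 targets (2 of 10). The largest swings in each list are given for THRB WT and then THRB KO mice. Nr1d1, a clock repressor, swung 62.6-fold and 62.7-fold, and Por 6.0-fold and 4.70-fold. Chac1, which degrades glutathione, swung 6.83-fold and 3.96-fold, the efflux pump Abcb1a 3.16-fold and 3.44-fold, Nat8 2.60-fold and 2.09-fold and Papss1 2.49-fold and 2.50-fold. Suox, which oxidises sulfite to sulfate, swung 1.49-fold and 1.4-fold. Slc35b1 swung 2.00-fold and 1.96-fold, the sulfatase gene Arsa 1.87-fold and 2.28-fold and Ggt6 1.81-fold and 2.09-fold. Nnmt (2.22-fold and 3.08-fold), Cbr3 (1.87-fold and 3.72-fold) and G6pdx (2.11-fold and 2.76-fold) were called in THRB KO mice and not in THRB WT mice. Ugp2 swung 2.23-fold in THRB WT and 2.00-fold in THRB KO mice with peaks at ZT10.1 and ZT10.0. Nr1i3, the xenobiotic receptor CAR, swung 2.05-fold and 1.81-fold with peaks at ZT11.3 and ZT11.6. Papss2 was called in THRB WT mice (1.68-fold, adjusted p = 0.00019, edgeR) and not in THRB KO mice (1.23-fold, adjusted p = 0.356, edgeR), and a difference was not called for any gene.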

How the data were processed

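Liver RNA of 36 mice was sequenced as poly-A selected, non-directional paired-end libraries. The deposited table holds raw read counts per gene, which the authors made with HISAT2 on GRCm38 and featureCounts, with tool versions not given in the sources used here. Since libraries carry no strand, overlapping antisense genes cannot be separated. The authors' own comparisons were not used. Samples were grouped by genotype and ZT from their labels, and nothing states that the letters a, b and c mark shared litters or days, so p-values rest on the spread between mice. Genes with at least 100 counts over all libraries were tested with edgeR 4.0.16 (R 4.3.3, TMM scaling factors 0.941 to 1.06, quasi-likelihood F test, Benjamini-Hochberg over 17994 genes, threshold 0.05): genotype with time as a factor, genotype at each ZT, their interaction, and sine and cosine terms of a 24-h period in each genotype and between genotypes. The authors tested genotype with DESeq2, both with times pooled and with time in the model, and called rhythms with several algorithms at an unadjusted threshold of 0.01 that were not rerun here. Pooled times, that threshold, DESeq2 1.42.0 and, for rhythms, limma 3.58.1 were run as alternatives. Peak times and peak-to-trough folds came from least squares on log2 CPM (prior count 2), so fold sizes of low genes are understated. With 29063273 to 42530551 counts per library, counting error limits only the lowest members. Scripts were tested on simulated data. Sequence copies were found with BLAST 2.17.0 on GENCODE M21 transcripts (95% identity over at least 50% of the length), where 45 of the 49 members had the coordinates of the deposited table. Members and lists were chosen with earlier results of these data known. Genes are named by rule: every member called for genotype, interaction or rhythm difference, the 10 smallest p-values for genotype, the 3 highest levels per kb of Ugt1a, other Ugt, Gst, Mgst and Sult, the 10 largest rhythms called in both genotypes, every member rhythmic in 1 genotype, and per list the 2 smallest p-values and the 2 largest rhythms. Exceptions include Cyp2b10, Cyp2b9 and Cyp3a11, which are in no list, and the genes said to be named after their values were seen.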

Additional observations from a re-analysis of the deposited data

How the results depend on the processing

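The number of members called for genotype, 4 in the report, was 8 with DESeq2, 2 when sampling times were pooled and 4 or 5 with other size factors, other filters, robust estimation or sine and cosine terms. Over all genes the number, 171 in the report, was 306 with DESeq2, 65 when pooled and 144 to 188 in those other settings. Leaving out the mice of 1 letter (12 of 36) left 1 call each time, Sult5a1 without a, Ugt1a9 without b and Ugt2b5 without c, and leaving out THRB WT mouse b at ZT6, an alternative chosen after seeing the data, gave 7, so leave-one-out counts ranged from 1 to 7. Those fits called 42, 85 and 68 of all genes without a, b and c, and 236 without mouse b. With mice of the same time and letter as a replicate block the count of members was 9, beside 387 of all genes. It added Gstm2 (adjusted p = 0.00415), Gstp1 (0.0108), Gstt3 (0.023), Ugt2b36 (0.0342) and Ugt3a2 (0.0404) in edgeR, and DESeq2 added the same genes but Gstt3. The labels do not say that a letter marks a shared litter, batch or day. The numbers in the sample descriptions run on within every pair of letter a except that of ZT6, and within that of letter b at ZT22. They lie close in several other pairs of letters b and c. Correlations of deviations between same-letter mice across genotypes were -0.038 to 0.225, over 0.1 in 9 of 18 pairs. Of 18 THRB WT mice, 15 correlated best with their own letter among the 3 THRB KO mice of their time. With 3 candidates per mouse some best matches arise without pairing, but 15 of 18 were most of them. Whether same-letter mice share a litter, batch or day was not tested. The 4 members called in the report come from the fit without the block. The block changed no call of the interaction or the rhythm difference, which had 0 members in every alternative, and no member was called at a single ZT in any alternative. Members with an unadjusted p under 0.05 numbered 7 without a filter on low counts at ZT2 and at ZT14 and 6 at ZT18. Their leave-one-out ranges were 1 to 5 at ZT2, 4 to 20 at ZT6, 2 to 4 at ZT10, 4 to 4 at ZT14, 1 to 5 at ZT18 and 3 to 11 at ZT22, with 4 at ZT6 without mouse b and 5 at ZT18 without it. The share of all genes in these fits is given only for ZT6 without mouse b (2.91%). The other counts are therefore no result about the members. Rhythmic members numbered 13 to 19 in THRB WT and 10 to 17 in THRB KO mice over leave-one-out fits, and 16 and 16 at the unadjusted threshold of 0.01. Over the same leave-one-out fits, rhythmic genes among all genes numbered 3169 to 5590 in THRB WT and 2394 to 5216 in THRB KO mice. The number of all genes at the unadjusted threshold is not given here. Among named members the rhythm calls lost most often were Gsto1 in THRB KO mice, in 5 of 10 alternatives, and Gsta4 in THRB KO and Gstm6 and Ugt1a1 in THRB WT mice, in 4 of 10 each. The log2 fold changes of 7 uncalled members turned sign, and over leave-one-out fits they ran from -0.121 to 0.0157 for Gstm4 (0.00545 without letter a), from -0.0187 to 0.0195 for Gstm7 (-0.0088 without mouse b), from -0.069 to 0.0421 for Mgst3 (0.00879 without letter a), from -0.0607 to 0.0625 for Sult1a1 (0.0521 without mouse b), from -0.0417 to 0.0551 for Sult1b1 (-4.82e-05 with times pooled), from -0.0734 to 0.0337 for Ugt1a1 and from -0.0989 to 0.00329 for Ugt2b35. The causes of these shifts were not tested, beyond fewer mice in the leave-one-out fits.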
